A study of Rattus norvegicus with 16 samples.

Results

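The 4 arrays described here compared rat neural stem/progenitor cells, held for 12 h in medium without added growth factor, with cells in fibroblast growth factor 2 (FGF-2). They were chosen by their titles, which name no factor and 12 h, and are 4 of the 16 two-colour arrays of the series. Neocortex of Sprague-Dawley embryos (embryonic day 14.5) gave the cells, which grew as a monolayer in N2 medium on plastic coated with poly-L-ornithine and fibronectin, with FGF-2 at 10 ng/ml. All 4 groups of 4 arrays carried RNA of such FGF-2-treated cells as the reference in the second dye. The other groups were no factor for 6 d and PDGF-AA (platelet-derived growth factor AA, 10 ng/ml) for 12 h or for 6 d. The cultures were primary and unsorted, so a ratio cannot tell a change per cell from a change in the mix of cells. RNA came from at least 2 preparations, and the labels do not say which arrays share one. The p-values thus rest on differences among hybridisations, some of which may be technical. The RNA is rat and the spotted cDNA is mouse, so gene symbols are those of the mouse chip.

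FGF-2 is the mitogen that keeps these cells dividing. It acts through receptor tyrosine kinases and the RAS-ERK cascade, which induces immediate early transcription factors, its own feedback inhibitors and the D and E cyclins. The cyclin-dependent kinases then inactivate the pocket proteins, and E2F factors switch on the genes of DNA synthesis. Genes of mitosis are switched on later in the cycle through paired CCAAT boxes, bound by NF-Y, and the cell cycle genes homology region (CHR), bound by the DREAM and MYB-MuvB complexes. When the mitogen is removed, AKT signalling also falls, FoxO factors enter the nucleus, and genes of growth arrest, autophagy and the lysosome can be induced.

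Every value below is a log2 ratio of sample over FGF-2 reference, or a difference between such ratios, with its standard error (SE) from the limma fit, which pools the spread over all 16 arrays. A value of -1 means that the level was halved. In arrays 1 and 4 the 12 h sample was labelled with Cy3 and in arrays 2 and 3 with Cy5, and values by array are given in the order 1 to 4. A unit is a named gene, or a feature of the chip with no single gene symbol. A unit is said to have been called, to have risen or to have fallen, where its adjusted p (Benjamini-Hochberg over all 12559 units, limma) was under 0.05. No source states the direction of the deposited ratio. It was taken as sample over reference, which is likely, because genes of DNA replication then lie below 0 after removal of the mitogen. The sign of the cell cycle results below was thus used in that choice and is no evidence for it. If the ratio ran the other way, every rise below would be a fall and every fall a rise.

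At 12 h, 1468 units (11.7%) were called, 654 higher (5.21%) and 814 lower (6.48%). Among the 6241 named genes 491 rose (7.87%) and 540 fell (8.65%), and these shares are the background for the gene lists below. More of the large changes were falls in this direction. Named genes that fell by over 1 numbered 107, against 32 that rose by over 1 (107 rises and 32 falls with the ratio turned), and the median of all called units was -0.54 on the lower side and 0.47 on the higher. Of the called units 1354 (92.2%) had the same sign on all 4 arrays, against 24.9% of all units. The calls were made on these same arrays, so much of this agreement is set by the selection. When 1 array was left out, a larger share of the calls was lost on the higher side. A fit with fewer arrays is also less able to call a small change. A lost call thus need not mean that the array left out differed from the others. Without array 1, 2, 3 or 4 the higher calls numbered 340, 213, 278 and 474, and the lower calls 567, 527, 519 and 645. The calls kept in each of these 4 fits were 169 higher and 430 lower.

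Many units also carried a dye effect, which the fit estimates apart from the treatment. A dye effect was called for 4907 units (39.1%), and arrays of one dye orientation correlated across units at 0.72 (arrays 1 and 4) and 0.63 (arrays 2 and 3), while the 4 pairs of opposite orientation lay between -0.03 and 0.18. With the dye effect removed, an effect estimated on these same arrays, the opposite pairs lay between 0.44 and 0.64 and the same-dye pairs at 0.51 and 0.56. Only 31 of the called units had the means of the 2 orientations on opposite sides of 0, which the selection on these same arrays in part sets. A dye effect was called for 40.9% of the called units, near the share of all units.

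**Figure D1:**
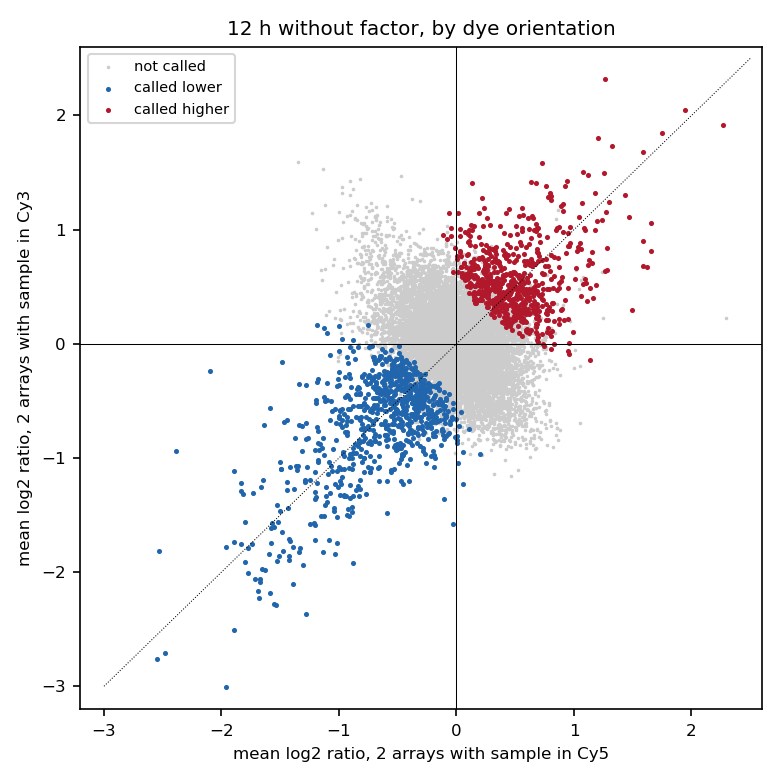
Mean log2 ratio over the 2 arrays with the sample in Cy5 (horizontal) against the 2 arrays with the sample in Cy3 (vertical), 1 point for each of the 12559 units; the dotted line marks equal values. Blue points (814 called lower) and red points (654 called higher) lie in the lower left and upper right quadrants apart from 31. Many lie off the dotted line, and a dye effect was called for 40.9% of the called units. The grey uncalled units also spread along the opposite diagonal, where the dye orientations disagree.

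The 20 named genes with the lowest ratios, among those called with one sign on every array, were nearly all genes of DNA synthesis and mitosis. Rrm2, the small subunit of ribonucleotide reductase, gave -2.94, -2.62, -2.48 and -2.58 on arrays 1 to 4 (-2.66 ± 0.22, adjusted p = 2.4e-06). Mcm6, a subunit of the replicative helicase, gave -2.96, -2.35, -2.61 and -2.46 (-2.59 ± 0.23, adjusted p = 4.0e-06). Top2a, the topoisomerase that untangles replicated DNA, gave -3.24, -1.77, -2.16 and -2.78 (-2.49 ± 0.18, adjusted p = 1.3e-06). All 4 arrays of these 3 genes lay below -1.7, and for Top2a the Cy3 arrays were lower than the Cy5 arrays. Ibtk, named as an inhibitor of Bruton's tyrosine kinase, was the one gene of the 5 lowest without a place in the cell cycle lists, with -2.48, -2.18, -1.61 and -2.54 (-2.20 ± 0.20, adjusted p = 4.9e-06). The 20 highest were more varied in function. Sat1, which acetylates spermidine and spermine for their breakdown, gave 2.14, 2.53, 2.00 and 1.70 (2.09 ± 0.27, adjusted p = 8.1e-05). Nrbp2, a pseudokinase, gave 2.40, 1.98, 1.90 and 1.69 (1.99 ± 0.33, adjusted p = 0.00065). Serinc2, of the serine incorporator family, gave 2.18, 1.77, 1.73 and 1.51 (1.80 ± 0.17, adjusted p = 4.9e-06). These 3 were above 1.5 on every array, without an order by dye.

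**Figure D2:**
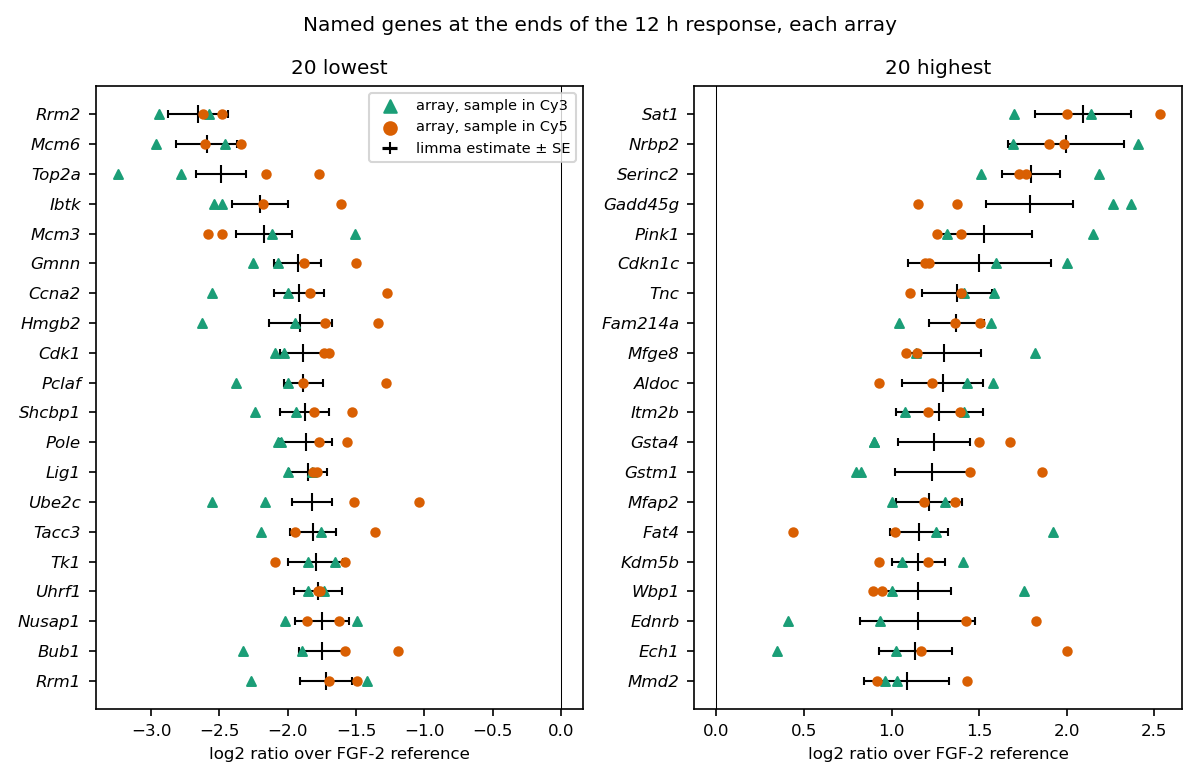
Log2 ratio over the FGF-2 reference (horizontal) for the 20 lowest (left) and 20 highest (right) named genes called with one sign on all 4 arrays; triangles are arrays with the sample in Cy3, circles in Cy5, and the black bar is the limma estimate with its SE. Rrm2, Mcm6 and Top2a lie lowest, between -3.24 and -1.77 on single arrays, and Sat1 lies highest, between 1.70 and 2.53.

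In most cases the stretches in front of the fallen genes of the cell cycle lists carried the letters of cell cycle elements in larger shares than those of all named genes tested. RefSeq promoter windows of the rat assembly GRCr8, from 250 bases before to 50 after an annotated start, were searched on both strands for an E2F type element (TTTCGCGC, TTTGGCGC or TTTCCCGC), for CHR (TTTGAA) and for CCAAT. Of 69 genes called lower in the 4 lists of DNA synthesis and S phase chromatin, 62 matched 65 windows by symbol, and 26 of these (40.0%) held an E2F type element and 13 CHR. Of 56 genes called lower in the 2 lists of mitosis, 48 matched 49 windows, and the order was turned, with 2 (4.08%) holding an E2F type element and 32 (65.3%) CHR. Over all 540 named genes called lower, of which 461 matched 482 windows, the shares were smaller, 12.2% for an E2F type element, 21.2% for CHR and 48.8% for CCAAT, and over the 491 called higher they were 1.58%, 11.04% and 33.6%. Among the 5482 windows of all named genes tested the E2F and CHR shares were 3.92% and 12.4%, and among all 33469 windows 1.72% and 18.3%. The E2F share in the lists of mitosis was thus near that of all named genes tested. The CHR share in the lists of DNA synthesis (13 of 65 windows) was above the 12.4% of all named genes tested. It was near the 18.3% of all windows. CCAAT stood in 56.9% of the windows of DNA synthesis, 65.3% of those of mitosis and 37.5% of those of all named genes tested. CCAAT together with CHR stood in 12.3%, 53.1% and 5.33%, respectively. Of the 17 matched genes among the 20 lowest, 12 had an E2F type element or CHR, against 2 of the 16 matched among the 20 highest. Counted by window, 871 of the 5482 of all named genes tested held one or the other, a share near that of the 20 highest. Windows of 1 gene can overlap, and a match describes letters and not a bound site.

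The following stretches, read 5′ to 3′ on the strand of the gene and ending before its start, show these elements in front of 3 genes of DNA replication that fell, Mcm6, Mcm5 and Top2a, and 2 of mitosis, Cdk1 and Tacc3. Capitals mark every match. On the opposite strand a CCAAT box reads ATTGG and CHR reads TTCAAA, and the E2F type elements read GCGCGAAA or GCGCCAAA. In Mcm6 and Mcm5 a pair of E2F type matches on opposite strands overlap and are capitalised as 1 run. Cdk1 holds both an E2F type element and CHR, and Top2a and Tacc3 hold CCAAT and CHR but no E2F type element. Cdk1 and Top2a are not typical of their groups. Of the 49 windows of mitosis only 1, that of Cdk1, held both an E2F type element and CHR. Of the 65 windows of DNA synthesis 13 held CHR.
Mcm6, chr13:42404388-42404497, minus strand: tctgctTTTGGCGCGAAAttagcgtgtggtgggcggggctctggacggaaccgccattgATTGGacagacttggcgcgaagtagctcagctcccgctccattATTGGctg
Mcm5, chr19:13488593-13488767, plus strand: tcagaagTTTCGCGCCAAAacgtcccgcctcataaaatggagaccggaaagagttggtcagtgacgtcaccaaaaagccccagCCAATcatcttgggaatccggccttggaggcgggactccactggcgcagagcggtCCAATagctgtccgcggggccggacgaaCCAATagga
Cdk1, chr20:19265153-19265287, plus strand: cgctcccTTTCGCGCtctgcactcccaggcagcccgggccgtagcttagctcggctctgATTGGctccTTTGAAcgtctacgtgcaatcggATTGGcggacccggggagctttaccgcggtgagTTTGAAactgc
Top2a, chr10:84473106-84473258, minus strand: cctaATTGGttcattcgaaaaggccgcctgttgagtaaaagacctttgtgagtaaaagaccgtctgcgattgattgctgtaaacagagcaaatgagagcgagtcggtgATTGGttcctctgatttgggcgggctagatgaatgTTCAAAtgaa
Tacc3, chr14:81289729-81289820, minus strand: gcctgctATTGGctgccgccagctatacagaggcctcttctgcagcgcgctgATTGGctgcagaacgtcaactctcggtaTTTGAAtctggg

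Few genes of FGF and ERK signalling itself were called. Among 13 FGF receptor and ERK cascade genes 1 rose and none fell, with a median of 0.14. The receptor gene Fgfr1 gave -0.09, -0.50, -0.31 and -0.44 and was not called (-0.33 ± 0.34, adjusted p = 0.63). The riser was Gpc1, a heparan sulphate proteoglycan of the cell surface, at 0.99, -0.08, 0.14 and 1.03 (0.52 ± 0.13, adjusted p = 0.016). It was high only on the Cy3 arrays, and its call was lost without any 1 of the 4 arrays (0.47 to 0.55). Targets and feedback inhibitors of the cascade held larger falls, but Spry1, Spry2, Dusp6 and Etv4 had no named unit and were not tested by name. Spry4, a feedback inhibitor of receptor tyrosine kinase signalling, gave -0.95, -1.78, -1.89 and -1.63 (-1.56 ± 0.34, adjusted p = 0.0054). Etv5, an ETS transcription factor induced by FGF, gave -1.28, -0.53, -1.01 and -1.36 (-1.04 ± 0.15, adjusted p = 0.0002). These were the 2 called of 6 tested in their list (33.3%), whose median was -0.17, and the dual-specificity phosphatases Dusp7 and Dusp14 lay at -0.02 ± 0.10 and 0.03 ± 0.13.

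Immediate early genes moved both ways, with 2 of 14 lower, 1 higher and a median of -0.10. Egr1, a zinc finger factor that ERK induces within minutes, gave -1.03, -1.41, -1.60 and -1.91 (-1.49 ± 0.23, adjusted p = 0.00041), and all arrays were below -1. Klf6 gave -0.45, -0.61, -0.88 and -0.88 (-0.70 ± 0.13, adjusted p = 0.0013). Btg2, an antiproliferative gene that is also induced early, gave 1.00, 0.83, 0.71 and 0.88 (0.86 ± 0.21, adjusted p = 0.013). Its adjusted p was 0.092 without array 2 and 0.075 without array 3. Fos lay at -0.20 ± 0.15 (adjusted p = 0.49) with arrays on both sides of 0, and Myc at 0.00 ± 0.09 (adjusted p = 0.99), where its 3 features disagreed in sign.

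The 7 cell cycle lists held 193 tested genes, of which 133 fell (68.9%), 3 rose and 57 were not called, with a median of -0.72. They held 69 of the 107 named genes that fell by over 1. Of these 133, between 114 and 123 were still called lower when 1 array was left out, and 109 in all 4 such fits. Regulators of the passage from G1 into S phase were mixed, with 8 of 20 lower, 2 higher and a median of -0.23. Ccne1, cyclin E1, gave -1.54, -1.70, -1.91 and -1.58 (-1.68 ± 0.15, adjusted p = 4.9e-06), a tight set in which no array was above -1.5. Tfdp1, the dimer partner of E2F factors, gave -0.81, -1.18, -0.97 and -0.53 (-0.87 ± 0.11, adjusted p = 5.9e-05). Ccnd2, cyclin D2, moved less, with -0.23, -0.67, -0.77 and -0.40 over 5 features (-0.52 ± 0.09, adjusted p = 0.00064). The pocket protein genes went opposite ways. Rbl1, p107, gave -1.38, -0.49, -0.43 and -1.09 (-0.84 ± 0.11, adjusted p = 5.7e-05), while Rbl2, p130, which accumulates in resting cells, gave 0.57, 0.34, 0.72 and 0.37 (0.50 ± 0.14, adjusted p = 0.023), a call lost without array 1, 2 or 3 (0.39 to 0.53). E2f4, the E2F factor that p130 binds, lay at -0.03 ± 0.11. Without array 3 the genes called lower in this list numbered 4.

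Genes that license replication origins fell in most cases. Of 19 origin and helicase genes 13 fell, none rose, and the median was -0.73, while each array's own median lay between -0.90 and -0.68. The MCM genes load around DNA as a ring and unwind it at the fork. Next to Mcm6, Mcm3 gave -2.12, -2.48, -2.58 and -1.51 (-2.17 ± 0.21, adjusted p = 5.4e-06). Mcm2 gave -1.38, -1.86, -1.81 and -1.06 (-1.53 ± 0.18, adjusted p = 3.7e-05). Mcm5 differed strongly by dye, at -0.91, -2.08, -2.70 and -0.96 (-1.66 ± 0.22, adjusted p = 8.1e-05). Thus Mcm2, Mcm3 and Mcm5 were lower on the Cy5 arrays than on the Cy3 arrays, whereas Mcm7, at -1.14, -0.47, -0.48 and -1.26 (-0.84 ± 0.09, adjusted p = 1.3e-05), was lower on the Cy3 arrays. Every array of the 5 was below 0. Gmnn, geminin, which blocks relicensing, gave -2.25, -1.5, -1.88 and -2.07 (-1.93 ± 0.17, adjusted p = 4.7e-06). Of the origin recognition complex, Orc1 (0.06 ± 0.13) and Orc2 (-0.05 ± 0.08), the list members nearest 0, and Orc4 were not called, while Orc5 and Orc6 fell, at -0.43 ± 0.10 and -0.86 ± 0.14. The call of Orc5 was lost without array 1 or 3 (adjusted p of 0.074 and 0.079). Orc4, Orc5 and Orc6 are outside the rule for named genes. Mcm10, whose 2 features disagreed in sign, lay at -0.42 ± 0.14 (adjusted p = 0.059).

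Enzymes of nucleotide supply had the highest share of calls of these lists, with 16 of 20 lower (80.0%), none higher and a median of -0.66. Besides Rrm2, the large subunit Rrm1 gave -2.27, -1.5, -1.70 and -1.42 (-1.72 ± 0.19, adjusted p = 1.5e-05). Tk1, the thymidine kinase of S phase, gave -1.85, -1.58, -2.09 and -1.66 (-1.79 ± 0.20, adjusted p = 1.9e-05). Mthfd2, a mitochondrial enzyme of one-carbon metabolism, gave -1.74, -1.37, -1.48 and -2.05 (-1.66 ± 0.19, adjusted p = 2.0e-05). All 4 genes were below -1.3 on every array. The purine synthesis enzymes Gart and Adsl were not called, at -0.04 ± 0.10 and -0.05 ± 0.07.

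At the fork itself 21 of 30 genes of synthesis and S phase repair fell, 1 rose, and the median was -0.72. Lig1, which joins Okazaki fragments, gave -2.0, -1.81, -1.79 and -1.82 (-1.85 ± 0.14, adjusted p = 1.3e-06). Pole, the leading strand polymerase, gave -2.07, -1.57, -1.77 and -2.05 (-1.87 ± 0.19, adjusted p = 9.0e-06). Rfc3, of the clamp loader, gave -1.5, -0.64, -1.13 and -1.45 (-1.18 ± 0.12, adjusted p = 1.0e-05). Pclaf, which binds the sliding clamp PCNA and stood in no list, gave -2.38, -1.28, -1.89 and -1.99 (-1.89 ± 0.14, adjusted p = 1.3e-06). The riser was Pole3, a histone-fold subunit shared with chromatin remodelling complexes, at 0.64, 0.02, 0.44 and 0.63 (0.43 ± 0.10, adjusted p = 0.0074), with an adjusted p of 0.083 without array 3. Top1 lay at 0.18 ± 0.10 and was not called.

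Chromatin genes that act in S phase fell in 19 of 29 cases, with none higher and a median of -0.66. Uhrf1, which hands on DNA methylation at the fork, gave -1.74, -1.77, -1.78 and -1.85 (-1.78 ± 0.18, adjusted p = 6.7e-06), the same value on all arrays within 0.11. Chaf1a, the large subunit of the histone chaperone CAF-1, gave -1.82, -1.43, -1.43 and -1.90 (-1.64 ± 0.15, adjusted p = 4.9e-06). Hmgb2 gave -2.63, -1.34, -1.73 and -1.94 (-1.91 ± 0.23, adjusted p = 3.9e-05). Both were lower on the Cy3 arrays. The heterochromatin protein gene Cbx5 and the histone chaperone gene Asf1a lay at 0.00 ± 0.12 and 0.01 ± 0.08.

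The lists of mitosis had the lowest medians of the 40 lists. Of 32 genes of mitotic kinases, cyclins and the anaphase-promoting complex 23 fell and none rose (median -1.09), and of 43 genes of the spindle, kinetochore, condensin and cytokinesis 33 fell and none rose (median -0.97). Cdk1, the kinase that drives entry into mitosis, gave -2.09, -1.70, -1.74 and -2.03 (-1.89 ± 0.17, adjusted p = 4.7e-06). Ccna2, cyclin A2, gave -2.56, -1.27, -1.84 and -1.99 over 3 features (-1.92 ± 0.18, adjusted p = 5.5e-06). Ube2c, the ubiquitin-conjugating enzyme of the anaphase-promoting complex, gave -2.56, -1.04, -1.52 and -2.17 (-1.82 ± 0.15, adjusted p = 2.4e-06). All arrays of these genes were below -1, and the Cy3 arrays were the lower ones. The anaphase-promoting complex subunits Cdc23 and Cdc26 were not called, at 0.00 ± 0.08 and 0.01 ± 0.11.

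Tacc3, which stabilises spindle microtubules, gave -2.20, -1.36, -1.95 and -1.75 (-1.82 ± 0.17, adjusted p = 4.9e-06). Smc4, the ATPase core of condensin, gave -2.13, -1.36, -1.67 and -1.58 (-1.68 ± 0.16, adjusted p = 4.9e-06). Bub1, a kinase of the spindle checkpoint, gave -2.32, -1.19, -1.58 and -1.89 (-1.75 ± 0.17, adjusted p = 5.9e-06). In all 3 genes array 1 was the lowest and array 2 the highest, yet every array was below -1. The spindle pole gene Numa1 and the microtubule-destabilising Stmn1, which also work outside mitosis, lay at 0.02 ± 0.12 and -0.03 ± 0.09.

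**Figure D3:**
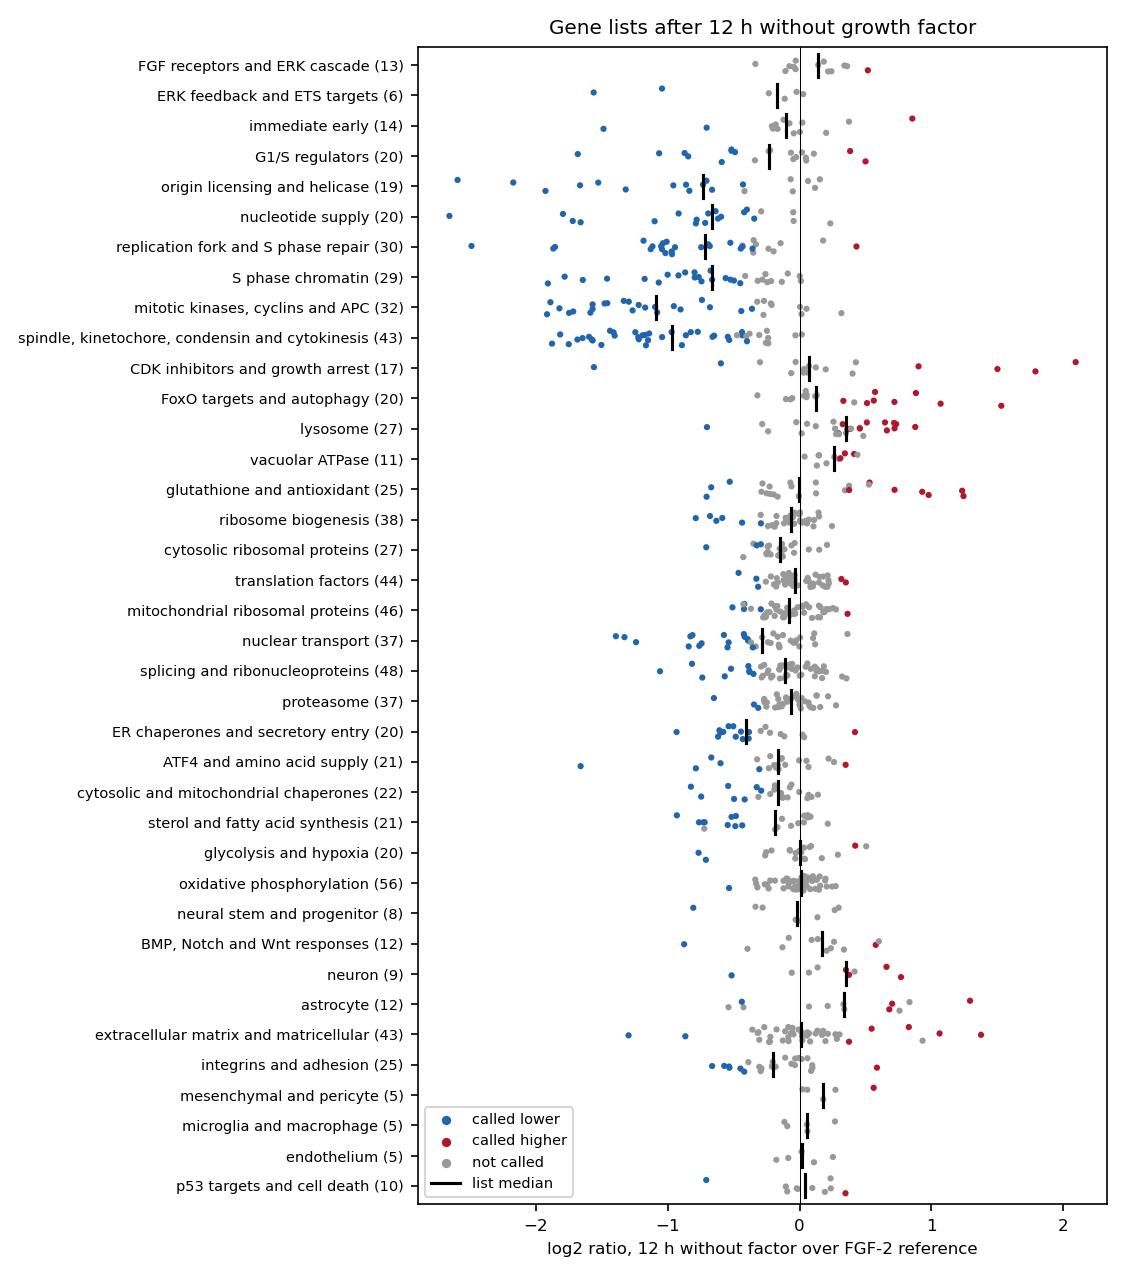
Log2 ratio over the FGF-2 reference (horizontal) of every tested member of the gene lists with at least 5 tested members, with the number tested in brackets; blue points were called lower, red higher, grey not called, and the black bar is the list median. The 6 lists from origin licensing to the spindle have medians between -1.09 and -0.66, most other lists centre near 0, and red points gather in the lists of growth arrest, FoxO targets, lysosome and glutathione.

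Growth arrest genes moved both ways, with 4 of 17 higher, 2 lower and a median of 0.07, but held 3 of the 6 highest named genes. Without array 2 the rises numbered 2. Gadd45g, a stress-induced gene that inhibits the CDK1 kinase, gave 2.37, 1.37, 1.15 and 2.26 (1.79 ± 0.25, adjusted p = 0.00013), all above 1 and higher on the Cy3 arrays. Cdkn1c, the CDK inhibitor p57, gave 2.00, 1.21, 1.19 and 1.60 (1.5 ± 0.41, adjusted p = 0.023), and its call was lost without array 1, 2 or 3 (1.31 to 1.62). The third was Sat1, described above. Mxd4, a MAX partner that opposes MYC, gave 0.91, 1.44, 0.79 and 0.47 (0.90 ± 0.21, adjusted p = 0.0088), with an adjusted p of 0.10 without array 2. The CDK inhibitors did not move alike. Cdkn2c, p18, gave -1.95, -0.98, -1.68 and -1.63 (-1.56 ± 0.16, adjusted p = 7.9e-06), and Cdkn1b, p27, lay at 0.03 ± 0.12 (adjusted p = 0.92), with 0.76, -0.44, -0.32 and 0.12 by array. Among 10 genes of p53 targets and cell death 1 rose and 1 fell, with a median of 0.04, and Mdm2 lay at -0.01 ± 0.08. The fall was Rps27l, which is also in the list of cytosolic ribosomal proteins.

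FoxO targets and autophagy genes rose in 8 of 20 cases, with none lower and a median of 0.13. Pink1, a FoxO target and the kinase that marks damaged mitochondria for autophagy, gave 2.15, 1.40, 1.26 and 1.32 (1.53 ± 0.27, adjusted p = 0.0012). Pik3ip1, an inhibitor of PI3 kinase, gave 1.33, 0.68, 0.84 and 1.43 (1.07 ± 0.13, adjusted p = 4.0e-05). Sqstm1, the autophagy receptor p62, gave 1.34, 0.74, 0.54 and 0.90 (0.88 ± 0.14, adjusted p = 0.0006). All were above 0.5 on every array. Ulk1, the kinase that starts autophagy, gave 0.79, 0.96, 0.63 and 0.49 (0.72 ± 0.15, adjusted p = 0.0049), with an adjusted p of 0.056 without array 2. Bnip3 lay at 0.03 ± 0.12. Without array 2 this list had 5 genes called higher.

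Lysosomal genes rose in 12 of 27 cases (44.4%), 1 fell, and 23 of the 27 ratios were above 0, with a median of 0.35. Gaa, the acid glucosidase that breaks down glycogen, gave 1.29, 0.73, 0.58 and 0.92 (0.88 ± 0.13, adjusted p = 0.00034). Ctsa, cathepsin A, gave 0.92, 0.74, 0.77 and 0.44 (0.72 ± 0.11, adjusted p = 0.00041). Both were above 0.4 on every array. Ctsd, cathepsin D, gave 0.95, 0.94, 0.52 and 0.53 over 4 features (0.73 ± 0.15, adjusted p = 0.0047), with an adjusted p of 0.056 without array 2. Psap, the precursor of the saposins, gave 0.65, 0.94, 0.84 and 0.45 (0.72 ± 0.16, adjusted p = 0.0075), with 0.071 without array 2 and 0.057 without array 3. Arsb, arylsulfatase B, went the other way, at -1.03, -0.29, -0.51 and -0.98 (-0.70 ± 0.10, adjusted p = 0.00022), and the membrane protein gene Lamp1 lay at -0.02 ± 0.11. Subunits of the vacuolar ATPase, which acidifies the lysosome, were above 0 in 11 of 11 cases, 3 of them called, with a median of 0.26 and a highest ratio of 0.44. The sizes here were small. Without array 2 or 3 the lysosomal genes called higher numbered 5 and 6, and no vacuolar ATPase gene was called without array 1, 2 or 3.

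Glutathione and antioxidant genes moved both ways, with 7 of 25 higher, 3 lower and a median of -0.01. The higher ones named here were glutathione S-transferases. Gsta4 gave 0.90, 1.68, 1.5 and 0.90 (1.24 ± 0.21, adjusted p = 0.00068), and Gstm1 gave 0.80, 1.86, 1.45 and 0.82 (1.23 ± 0.21, adjusted p = 0.0009). Gstm7 and Gstm2 lay at 0.98 ± 0.15 and 0.93 ± 0.14. Each was higher on the Cy5 arrays, and since the Gstm genes are near copies of each other, a cDNA spot may read several of them. The peroxiredoxins Prdx1 and Prdx4, which remove peroxides, fell by 0.71 and 0.67 on the log2 scale (SE 0.13 and 0.11), and Gpx1 gave -0.40, -0.52, -0.74 and -0.47 (-0.53 ± 0.10, adjusted p = 0.0014). Without array 2 the genes called higher numbered 4.

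Machinery of growth other than DNA synthesis was lower in part. Nuclear transport genes fell in 16 of 37 cases (43.2%), with none higher and a median of -0.28. Kpna2, an importin alpha, gave -1.81, -1.02, -1.41 and -1.34 (-1.39 ± 0.17, adjusted p = 5.4e-05). Rangap1, the GTPase activator of RAN, gave -1.19, -1.49, -1.27 and -1.36 (-1.33 ± 0.15, adjusted p = 2.2e-05). Xpo1, the main export receptor, gave -1.87, -1.15, -0.93 and -1.01 (-1.24 ± 0.15, adjusted p = 5.0e-05). These 3 were below -0.9 on every array, while Nup88 of the nuclear pore and the mRNA exporter Nxf1 both lay at 0.00 (SE 0.09 and 0.11).

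In the endoplasmic reticulum (ER) 12 of 20 chaperone and secretory entry genes fell, 1 rose, and the median was -0.41. Hsp90b1, the ER form of HSP90, gave -1.24, -0.86, -0.95 and -0.68 (-0.93 ± 0.14, adjusted p = 0.00029). Pdia4, a protein disulphide isomerase, gave -0.60, -0.69, -0.63 and -0.54 (-0.62 ± 0.12, adjusted p = 0.0018). Manf, a secreted ER stress protein, gave -0.44, -0.51, -0.77 and -0.70 (-0.61 ± 0.11, adjusted p = 0.001). Every array of these 3 genes was below -0.4. The stress sensor Atf6 rose, at 0.48, 0.34, 0.27 and 0.58 (0.42 ± 0.09, adjusted p = 0.0074), with an adjusted p of 0.0502 without array 2, and Xbp1 lay at 0.02 ± 0.09. Chaperones of the cytosol and mitochondria fell in 7 of 22 cases with none higher (median -0.16), led by Hspe1, the mitochondrial HSP10, at -0.87, -0.87, -0.72 and -0.84 (-0.82 ± 0.09, adjusted p = 1.7e-05). That count was 4 without array 1, 2 or 3.

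Lists of the ribosome, protein turnover and energy metabolism had medians near 0. Genes called lower numbered 6 of 38 in ribosome biogenesis (15.8%), 3 of 27 among cytosolic ribosomal proteins (11.1%), 4 of 46 among mitochondrial ribosomal proteins (8.70%), 3 of 44 among translation factors (6.82%) and 3 of 37 in the proteasome list (8.11%), of which Psmc3ip is not a subunit. Their medians lay between -0.15 and -0.04. The lowest was that of the cytosolic ribosomal proteins, of which 24 of 27 ratios were below 0. Its medians by array were -0.30, -0.10, -0.07 and -0.28. Leaving out array 2 took the mitochondrial ribosome count to 1 and the proteasome count to 0, leaving out array 3 took the mitochondrial count to 2, and leaving out array 1, 3 or 4 took the proteasome count to 1. Translation factors had 1 call without array 1 or 3. Nop58, of the box C/D ribonucleoproteins, gave -0.62, -0.83, -0.81 and -0.46 (-0.68 ± 0.10, adjusted p = 0.00026), whereas Dkc1 and Rrp12 both lay at 0.00 (SE 0.08 and 0.11). Splicing genes fell in 9 of 48 cases (18.8%, median -0.11), with Lsm2 lowest at -1.03, -1.28, -1.61 and -0.31 (-1.06 ± 0.15, adjusted p = 0.00012), and in 5 cases without array 1. Oxidative phosphorylation had 1 of 56 genes called, the lower Sdhd of complex II at -0.53 ± 0.11 (adjusted p = 0.0053). In glycolysis Pgk1 gave -1.0, -0.66, -0.67 and -0.74 (-0.77 ± 0.10, adjusted p = 0.0001) and Pgam1 gave -0.77, -1.02, -0.74 and -0.31 (-0.71 ± 0.11, adjusted p = 0.00031), but the list of 20 genes had no other fall and a median of 0.00, with Pkm at 0.00 ± 0.09.

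Sterol and fatty acid synthesis had 9 of 21 genes lower (42.9%), none higher and a median of -0.19. Tmem97, a sterol-regulated membrane protein, gave -0.89, -0.50, -0.97 and -1.36 (-0.93 ± 0.13, adjusted p = 0.00016). Insig1, which holds the sterol sensor in the ER, gave -0.82, -0.60, -0.81 and -0.82 (-0.76 ± 0.14, adjusted p = 0.0014). Elovl6, a fatty acid elongase, gave -1.01, -0.33, -0.73 and -0.81 over 4 features (-0.72 ± 0.14, adjusted p = 0.0027). All arrays were below 0, with array 2 nearest to it. The sensor gene Scap lay at 0.03 ± 0.12, and the count was 5 without array 2 or 3. Genes of the ATF4 response and amino acid supply fell in 5 of 21 cases (23.8%) with 1 higher, and in 3 without array 3. Of these falls Mthfd2 and Shmt2 are also in the list of nucleotide supply and were counted there. Gars, the glycyl-tRNA synthetase, gave -0.78, -0.63, -0.57 and -0.70 (-0.67 ± 0.10, adjusted p = 0.00017), and Psat1 lay at 0.00 ± 0.14.

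The lists of stem cells and of differentiated cells had few tested members. Sox2, Hes1, Hes5, Gfap, Dcx, Olig2 and Mbp had no named unit. Of 8 stem and progenitor genes 1 fell. This was Vim, vimentin, at -0.83, -0.81, -1.07 and -0.52 (-0.81 ± 0.13, adjusted p = 0.00047). Nes, nestin, gave 0.32, -0.67, -0.92 and 0.15 and was not called (-0.28 ± 0.12, adjusted p = 0.18). It was above 0 on both Cy3 arrays and below 0 on both Cy5 arrays. Id1, an inhibitor of differentiation and target of BMP signalling, gave -1.33, -0.76, -0.57 and -0.84 (-0.88 ± 0.18, adjusted p = 0.0032), the one fall among 12 genes of BMP, Notch and Wnt responses, where Bmp1, a procollagen protease, rose at 0.58 ± 0.12 (adjusted p = 0.0048, and 0.054 without array 1). Ratios carry no absolute level, so whether a cell type's markers were present cannot be read from them.

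Of 9 neuronal genes 4 rose and 1 fell, with a median of 0.35, and the rises numbered 2 without array 2 or 4. Of the other risers, Dpysl2 (0.35 ± 0.10) lost its call without array 2 or 4 and Uchl1 (0.38 ± 0.10) without any 1 of the 4. Mapt, the microtubule protein tau, gave 1.30, 0.57, 0.45 and 0.76 (0.77 ± 0.15, adjusted p = 0.0023). Elavl2, a neuronal RNA-binding protein, gave 0.70, 0.42, 0.82 and 0.70 (0.66 ± 0.10, adjusted p = 0.00044). Both were above 0.4 on every array. Gap43, a protein of growth cones, fell at -0.52 ± 0.11 (adjusted p = 0.0039), but only the Cy3 arrays (-1.09 and -1.0) were low, with 0.22 and -0.20 on the others. Tubb3, neuronal beta-tubulin, lay at 0.07 ± 0.10 (adjusted p = 0.75). Of 12 astrocyte genes 3 rose and 1 fell, with a median of 0.34. Aldoc, the brain aldolase, gave 1.58, 1.23, 0.93 and 1.43 (1.29 ± 0.23, adjusted p = 0.0013), and the metallothioneins Mt1 and Mt2, near copies that a spot may not separate, lay at 0.68 ± 0.12 and 0.70 ± 0.12. The gap junction gene Gja1 gave -0.09, 0.96, 0.54 and -0.07 and was not called (0.33 ± 0.17, adjusted p = 0.25). The fall was Slc1a3, a glutamate transporter, at -0.44 ± 0.13 (adjusted p = 0.037), lost without array 1, 3 or 4 (-0.50 to -0.35).

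Of 4 genes of the oligodendrocyte lineage 2 rose, Qk and Sirt2, both with calls that were lost when some single arrays were left out. Sirt2, a deacetylase of myelinating cells, gave 1.41, -0.10, 0.48 and 0.88 (0.67 ± 0.17, adjusted p = 0.015), with adjusted p-values of 0.092 without array 1 and 0.12 without array 3, and Qk lay at 0.44 ± 0.10 (0.10 without array 2 and 0.056 without array 4). Pdgfra, the receptor of PDGF-AA and a marker of oligodendrocyte precursors, gave 1.18, 0.92, 0.77 and 1.00, all well above 0, but its SE across the 16 arrays was 0.36 and it was not called (0.97, adjusted p = 0.10). In the fit to only the 4 arrays of no factor 12 h, 3 genes of this list were called higher, Pdgfra among them. Among markers of other cells that a neocortical culture could hold, 0 of 5 microglial, 0 of 5 endothelial and 0 of 1 red blood cell genes were called, with list medians of 0.06, 0.02 and -0.18, and 1 of 5 mesenchymal genes rose, Pdgfrb at 0.56 ± 0.15 (adjusted p = 0.022, lost without array 1, 2 or 3, at 0.40 to 0.64).

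Matrix genes moved both ways, while adhesion genes were mostly below 0. Of 43 extracellular matrix genes 5 rose and 2 fell, with a median of 0.01. Tnc, tenascin C, gave 1.59, 1.40, 1.11 and 1.41 (1.38 ± 0.20, adjusted p = 0.00021). Igfbp4, a binding protein of insulin-like growth factors, gave -0.90, -1.70, -1.29 and -1.30 (-1.30 ± 0.15, adjusted p = 2.0e-05), and its relative Igfbp5 gave 0.70, 1.36, 1.21 and 0.98 (1.06 ± 0.29, adjusted p = 0.024), a call lost without array 2, 3 or 4 (0.91 to 1.13). The rises numbered 4, 1, 2 and 2 without arrays 1 to 4. Integrin and adhesion genes fell in 6 of 25 cases, with 1 higher, 19 of 25 ratios below 0 and a median of -0.20, but the median was -0.29 and -0.47 on the Cy3 arrays and 0.00 and -0.01 on the Cy5 arrays. Itgb5, integrin beta 5, gave -0.49, -0.74, -0.58 and -0.31 (-0.53 ± 0.10, adjusted p = 0.0022).

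High ratios outside the lists came from genes of varied function. Mfge8, a secreted protein that bridges dying cells and integrins, gave 1.82, 1.15, 1.08 and 1.14 (1.30 ± 0.21, adjusted p = 0.00058). Fat4, a giant cadherin of planar polarity, gave 1.25, 0.44, 1.02 and 1.92 (1.16 ± 0.17, adjusted p = 0.00017). Kdm5b, a histone H3 lysine 4 demethylase, gave 1.41, 1.21, 0.93 and 1.06 (1.15 ± 0.15, adjusted p = 8.1e-05). All were above 0.4 on every array, with Fat4 the most spread. Itm2b, a membrane precursor protein, lay at 1.27 ± 0.25 and Mfap2, of the microfibrils, at 1.21 ± 0.19. Ednrb, the endothelin B receptor, gave 0.41, 1.83, 1.43 and 0.93 (1.15 ± 0.33, adjusted p = 0.030), and its call was lost without array 2, 3 or 4 (0.95 to 1.18).

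The next comparison asked which of these changes differed from those in cells given PDGF-AA for the same 12 h, on arrays that share the FGF-2 reference. In the fit to all 16 arrays 2 units differed (0.0159%), against 681 at an unadjusted p under 0.05. One was an unnamed probe and the other was Mcm6. On the PDGF-AA arrays Mcm6 gave -0.43, -0.85, -0.40 and -0.26, well apart from the range of -2.96 to -2.35 without factor (difference -2.11 ± 0.32, adjusted p = 0.033). The count fell to 0 without array 1, 2 or 3 of no factor. It was also 0 without array 2, 3 or 4 of PDGF-AA, and 1 without its array 1.

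In the fit to the 8 arrays of 12 h alone, which leaves out the spread of the 6 d arrays, 25 of the 12559 units differed, 21 of them named genes. In that fit the SE for Mcm6 was 0.16 in place of 0.32. Lower without factor than with PDGF-AA were 19 named genes. Rrm2 differed by -1.74 ± 0.19 (adjusted p = 0.0085), Spry4 by -1.53 ± 0.20 (adjusted p = 0.010) and Ccne1 by -1.24 ± 0.14 (adjusted p = 0.0089). For Spry4 the PDGF-AA arrays gave -0.06, 0.60, 0.01 and -0.67 and for Ccne1 -0.78, -0.22, -0.49 and -0.28, with no overlap with the arrays without factor. The others of DNA synthesis and mitosis were Mcm2, Mcm3, Gmnn, Lig1, Pole, Pclaf, Top2a, Chaf1a, Mthfd2 and Shcbp1, with differences between -1.37 and -0.83. The lists as a whole also lay below 0 with PDGF-AA. There the medians of the 2 mitosis lists were -0.82 and -0.71, beside -1.09 and -0.97 without factor. Those of the 4 lists of DNA synthesis and S phase chromatin lay between -0.40 and -0.29, beside -0.73 to -0.66. Ibtk, at -1.39 ± 0.18, and Igfbp4, at -0.95 ± 0.15, also differed, as did Antkmt, Cbr3 and Dctpp1, which are outside the rule for named genes and were picked after their values were seen. Higher without factor were Cdkn1c (0.93 ± 0.13, adjusted p = 0.012) and Gadd45g (0.77 ± 0.12, adjusted p = 0.030). In the fit to all 16 arrays none of these but Mcm6 passed the threshold, with adjusted p-values of 0.72 for Spry4, 0.080 for Ccne1 and 0.90 for Gadd45g.

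The last comparison asked which early changes differed from those after 6 d without factor. There 235 units differed (1.87%), 178 lower at 12 h (1.42%) and 57 higher at 12 h (0.454%), and 169 of them were named genes. Of the 235 units 106 had been called at 12 h and 129 had not. Replication and mitosis genes were among those lower at 12 h. Top2a gave -1.02, -1.18, -1.47 and -0.60 at 6 d, all above its 12 h arrays (difference -1.42 ± 0.26, adjusted p = 0.0076), and Mcm6 gave -1.33, -1.30, -1.76 and -0.60 (difference -1.34 ± 0.32, adjusted p = 0.040). The medians of the 2 mitosis lists were -1.09 and -0.97 at 12 h beside -0.54 and -0.51 at 6 d, and 7 of their 75 genes passed the test of the difference, each lower at 12 h. Leaving out array 1, 2, 3 or 4 of no factor 12 h gave 111, 143, 112 and 125 differing units, and leaving out the arrays of 6 d in turn gave 171, 163, 112 and 141. The array titles also carry a number whose meaning is not explained. It is the same on all arrays of 12 h and on 3 of the 4 of no factor 6 d, and differs on array 1 of no factor 6 d. The count of 171 thus compares 2 groups of a single number. Its pooled spread and dye term still used arrays of PDGF-AA 6 d that carry other numbers.

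The largest differences from 6 d were in genes that were higher at 6 d. Clu, clusterin, a secreted chaperone abundant in astrocytes, gave 0.82, 0.81, 1.27 and 0.13 at 12 h and 4.11, 3.95, 3.08 and 1.74 at 6 d (difference -2.46 ± 0.51, adjusted p = 0.019). Sirt2 gave 2.79, 3.05, 4.17 and 2.32 at 6 d (difference -2.42 ± 0.24, adjusted p = 5.6e-05). Entpd2, an ecto-ATPase, gave 0.72, 0.15, -0.30 and 0.79 at 12 h and 2.34, 2.35, 2.28 and 1.71 at 6 d (difference -1.83 ± 0.17, adjusted p = 3.8e-05). In none of the 3 did the arrays of both times overlap. Gja1, not called at 12 h, gave 2.47, 1.46, 1.93 and 1.70 at 6 d (difference -1.56 ± 0.23, adjusted p = 0.0018). Of the 12 astrocyte genes tested 4 differed between the times. Clu, Entpd2 and Gja1 were lower at 12 h, and 1, Cst3, was higher at 12 h. Epb41l2, a protein of the membrane skeleton, changed side, from -0.54 ± 0.12 at 12 h, a call lost without array 1 or 4 (-0.49 and -0.47), to 1.30, 1.23, 1.39 and 1.23 at 6 d (difference -1.83 ± 0.17, adjusted p = 4.0e-05).

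Among genes higher at 12 h than at 6 d, Gadd45g gave 0.29, 0.82, 0.67 and -1.18 at 6 d (difference 1.64 ± 0.35, adjusted p = 0.023), all below its 12 h arrays. Mmp2, a matrix metalloproteinase, gave 0.06, -0.11, -0.04 and 0.07 at 12 h and -2.10, -1.60, -2.02 and -1.48 at 6 d (difference 1.79 ± 0.25, adjusted p = 0.00093). Cst3, cystatin C, a secreted protease inhibitor, gave -0.47, -0.54, -0.44 and -0.70 at 12 h and -2.63, -2.04, -2.14 and -2.08 at 6 d (difference 1.68 ± 0.30, adjusted p = 0.0072). Thus Mmp2 and Cst3 were within 0.70 of the reference at 12 h and more than 1.4 below it on every array of 6 d. Smoc1, a matricellular protein, gave 0.39, 0.87, 0.76 and 0.19 at 12 h and -0.54, -0.77, -1.26 and -1.39 at 6 d (difference 1.54 ± 0.22, adjusted p = 0.0012).

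**Figure D4:**
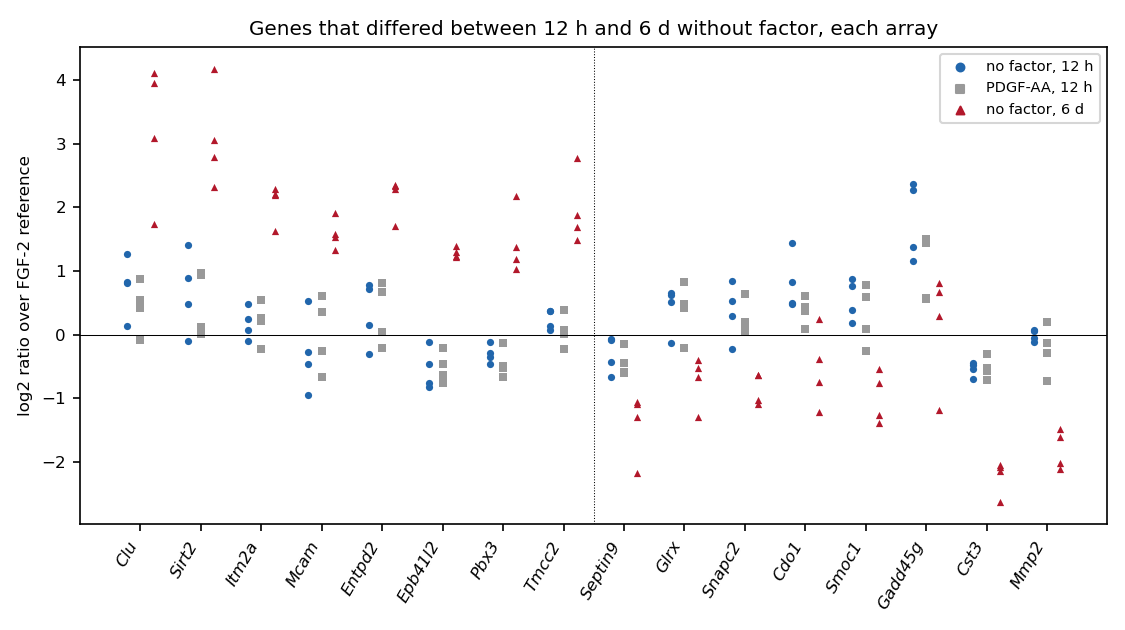
Log2 ratio over the FGF-2 reference (vertical) on each of 4 arrays for the 8 named genes lowest (left of the dotted line) and the 8 highest at 12 h without factor relative to 6 d without factor; circles are 12 h without factor, squares 12 h with PDGF-AA, triangles 6 d without factor. For Clu the circles lie between 0.13 and 1.27 and the triangles between 1.74 and 4.11, and for Mmp2 the circles lie between -0.11 and 0.07 and the triangles between -2.10 and -1.48.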

How the data were processed

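Each array carried labelled cDNA from 40 µg of total RNA per dye, hybridised to a mouse cDNA chip, scanned with a ScanArray instrument and quantified with QuantArray, per the labels' protocols. The deposited values are 1 log2 ratio per feature and array. The base of the logarithm is not stated and 2 was assumed, so another base would rescale every value. Not given in the sources used here are the handling of background, the normalisation and any filter on spots. Columns of dye-swapped arrays already ran in 1 direction. Sample over reference was inferred as that direction from genes of DNA replication lying below 0 after withdrawal of the mitogen. No spot intensities were used, so brightness over background is not known here, and precision is set by the number of arrays.

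Of 15151 features 8833 had 1 mouse symbol, 606 had several and 5712 had none listed. Arrays were centred on their medians and features of 1 symbol were averaged. The 12559 units with values on at least 3 arrays of each group were fitted with limma 3.58.1 in R 4.3.3, with 1 coefficient per group and a dye term over all 16 arrays, empirical Bayes moderation and Benjamini-Hochberg adjustment (two-sided, threshold 0.05). The ratio was tested against 0, which leaves out the spread of the reference, and assumes 1 common FGF-2 RNA on all arrays. On simulated data of these 12559 units the fit for no factor at 12 h recovered 59.7% of changes of 0.5, 97.0% of 1 and 100% of 2 on the log2 scale, and 4.47% of its calls were false. The simulation changed 67, 67 and 66 units by these sizes, far fewer than the 1468 called in the data. Its noise was normal and independent between arrays, whereas the arrays here may share RNA preparations. These rates thus need not hold for the data.

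Named were the 20 highest and 20 lowest called genes with one sign on all 4 arrays, up to 4 called members per direction and the 2 nearest 0 in each of 40 gene lists, a fixed set of signalling and lineage genes, and the 8 genes per direction with the largest contrast. Of that fixed set 15 genes had no named unit and are not analysed here. They were Spry1, Spry2, Dusp6, Etv4, Ccnd1, Cdkn1a, Sox2, Hes1, Hes5, Gfap, Dcx, Olig2, Mbp, Mcm4 and Mcm8. The comparisons, lists and genes were chosen with earlier results of these data known, so lists are described by counts and medians with no test. The alternatives were other fits, scalings, filters and variance priors, and leaving out each array. Promoter windows are those of RefSeq for GRCr8, matched by symbol (5013 of 6241 named genes).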

Additional observations from a re-analysis of the deposited data

Results flagged for a closer look

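In 5 of 252 named genes and in the medians of 2 of 38 lists, 1 of the 4 arrays of no factor at 12 h stood apart from the other 3. Chance alone sets an array apart in about 1 of 20 such groups of 4. Array 1 was apart for Mfge8 (1.82, the others 1.08 to 1.15), Pink1 (2.15, the others 1.26 to 1.40), Wbp1 (1.76, the others 0.89 to 1.00) and Lig1 (-2.0, the others -1.82 to -1.79), and array 2 for Insig1 (-0.60, the others -0.82 to -0.81). Array 1 was also apart in the median of the S phase chromatin list (-0.71, the others -0.63 to -0.62), and array 3 in that of the mitotic kinases, cyclins and APC list (-1.27, the others -1.02 to -0.97). None of these arrays changed the side of 0.

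Differences between groups past the threshold were found in Mcm6 against PDGF-AA at 12 h (-2.11), and in the genes named for the contrast of 12 h with 6 d without factor. Lower at 12 h were Clu (-2.46), Sirt2 (-2.42), Itm2a (-1.90), Mcam (-1.87), Entpd2 (-1.83), Epb41l2 (-1.83), Pbx3 (-1.75) and Tmcc2 (-1.72). Higher at 12 h were Mmp2 (1.79), Cst3 (1.68), Gadd45g (1.64), Smoc1 (1.54), Cdo1 (1.34), Snapc2 (1.21), Glrx (1.14) and Septin9 (1.09).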

How the results depend on the processing

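No call of a named gene reversed. Of 3528 values of named genes under the alternatives 3310 kept their side of the threshold, 207 lost the call and 11 gained one. Genes that stayed uncalled count among the 3310 even where their sign changed. An example is Orc1, at 0.06 in the main fit and -0.12 without array 4. Of 560 list medians 537 moved by less than the spread between arrays. Without a dye term 830 units were called (301 higher, 529 lower), with 0 against PDGF-AA and 87 against 6 d, and the calls numbered 7 higher for the lysosome, 5 lower for splicing, 3 lower for cytosolic and mitochondrial chaperones and 3 higher for matrix. The chaperone count was 4 with only the 4 arrays of no factor 12 h. Against PDGF-AA the count was 25 with only the 8 arrays of 12 h and 0 with a common spread, quantile normalisation or a trended and robust prior. Leaving out 1 array of no factor 12 h gave 740 to 1119 calls, 213 to 474 higher and 519 to 645 lower, 0 to 2 against PDGF-AA and 111 to 143 against 6 d. Leaving out 1 array of the other group gave 0 to 1 against PDGF-AA and 112 to 171 against 6 d. Over these fits the list counts ranged from 4 to 7 (G1/S), 5 to 7 (FoxO), 5 to 10 (lysosome), 4 to 7 (glutathione), 4 to 6 (chaperones), 5 to 8 (sterol), 5 to 9 (splicing), 3 to 4 (ATF4) and 1 to 4 (matrix). No paired analysis was possible because the labels give no replicate numbers, and the first number in the titles is the same on all arrays of 12 h.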

Other observations

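Named genes were called more often than units without a single symbol, at 16.5% against 6.92%. An unnamed probe, H3104C12_1, picked after its values were seen, gave 4.78 on array 2 and between -0.19 and 0.47 on the other arrays, and was not called (1.26, adjusted p = 0.15, limma).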
